A study of Mus musculus with 3 samples.

Results

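Krüppel-like factors were followed through RNA from the chromatin fraction of mouse macrophages. Members were the 10 listed genes Klf2, Klf3, Klf4, Klf6, Klf7, Klf9, Klf10, Klf11, Klf13 and Klf16, found by gene name among 55536 annotated genes, 17 of which are Klf genes. The macrophages were grown from bone marrow of C57BL/6J mice, and their sex and age were not collected. All 3 libraries had the same treatment: Lipid A, the lipopolysaccharide moiety sensed by TLR4, at 100 ng/ml for 12 h, a washout of 12 h, then Lipid A at 100 ng/ml again for 25 min. The libraries were made after ribosomal RNA depletion from 1 µg, 250 ng and 500 ng of RNA in replicates 1, 2 and 3. No untreated cells were analysed here, so the values describe levels in 1 condition and not a response.

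Krüppel-like factors are transcription factors whose C-terminal zinc fingers bind GC-rich and CACCC sequences in promoters and enhancers. Their N-terminal parts differ and sort the family into groups. Klf3 recruits the corepressor CtBP, Klf9, Klf10, Klf11, Klf13 and Klf16 recruit SIN3A with its histone deacetylases, and Klf2, Klf4, Klf6 and Klf7 act mostly as activators. In macrophages Klf2 is known to restrain and Klf6 to promote inflammatory gene expression, while Klf4 is known for monocyte differentiation and alternative activation. Several of these genes are immediate early genes, transcribed soon after a stimulus.

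Each library was quantified by the authors in 2 ways. The first quantification came from alignments to the transcriptome and gives expected counts and TPM, a level per transcript length with the same sum in every library. The second came from reads matched to a transcript index, and its TPM were summed over the transcripts of each gene. Annotated genes held 13502401, 17848798 and 17824176 expected counts in replicates 1, 2 and 3, so that a count of 0 allows up to 0.222, 0.168 and 0.168 CPM (counts scaled to the library's total). This limit covers counting error only. The second quantification assigned 1.53, 1.79 and 1.69 times as many reads. Protein-coding genes held 25.4% to 29.8% of TPM in the first quantification and 32.3% to 46.2% in the second. All 8 macrophage markers were detected, led by Adgre1 at 298 ± 52.9 TPM (SD, n = 3) and Lyz2 at 191 ± 9.59 TPM. The labels give 1 donor identifier for all libraries and do not say whether the replicates came from separate animals, so each SD is the spread between these libraries.

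Klf6 was the most abundant member in the first quantification, at 141 ± 43.0 TPM, rank 294 of 22028 protein-coding genes. Klf13 followed at 31.8 ± 3.07 TPM and Klf3 at 28.7 ± 7.77 TPM. Klf7 stood at 7.003 ± 1.25 TPM, Klf10 at 6.50 ± 1.40 TPM and Klf2 at 4.06 ± 0.578 TPM. The other 4 members had means below 1 TPM. Detection required 1 TPM or more in each library, which 6 of the 10 members reached, against 44.0% of protein-coding genes. In the second quantification 7 of 10 members were detected, Klf11 being added, against 53.7% of protein-coding genes. Both counts are near what the background gives for 10 genes. In bulk RNA, fewer cells with a transcript and less transcript per cell cannot be told apart.

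**Figure D1:**
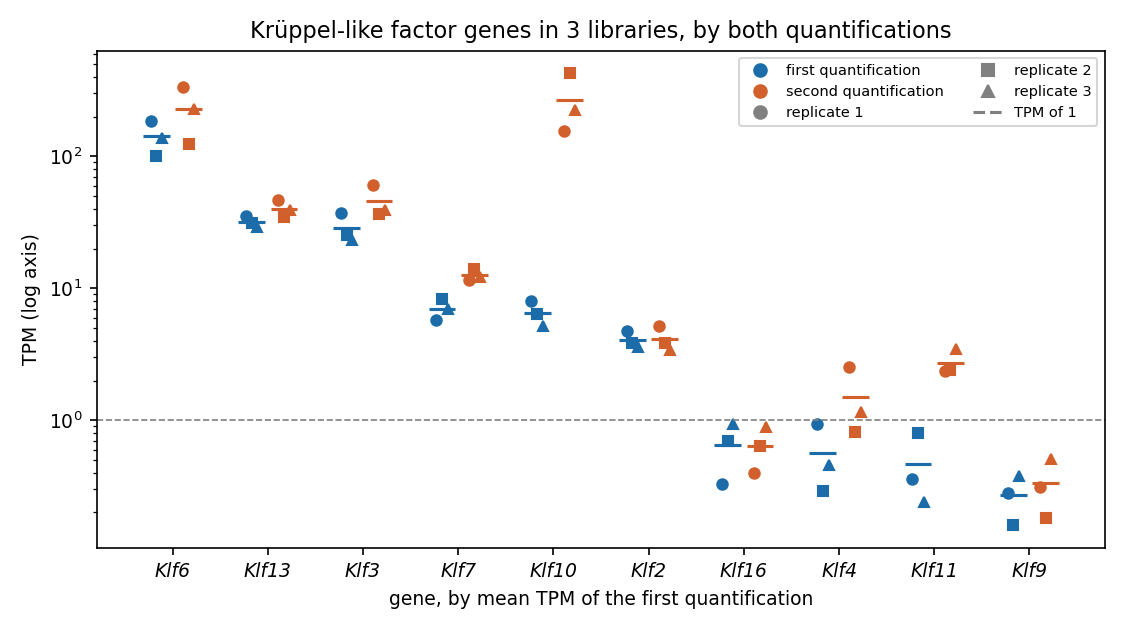
TPM of each member in the 3 libraries on a log axis; marker shapes are replicates, colours are the quantifications, short bars are means and the dashed line is the detection limit of 1 TPM. Klf6 is highest in the first quantification, whereas Klf10 lies at 155 to 426 TPM in the second and at 5.17 to 7.96 TPM in the first.

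The order of levels held some steps larger than their spread in the first quantification. Within libraries, log2(TPM + 1) of Klf6 exceeded that of Klf13 by 2.08 ± 0.38, and Klf3 exceeded Klf7 by 1.87 ± 0.55. Klf10 exceeded Klf2 by 0.56 ± 0.12 and Klf2 exceeded Klf16 by 1.63 ± 0.43. These 4 of the 9 neighbouring pairs had the same sign in 3 of 3 libraries and a mean beyond its SD. Pairs were ordered by mean TPM of these same libraries, so the positive direction of the means was largely set beforehand. Klf13 and Klf3, Klf7 and Klf10, Klf16 and Klf4, Klf4 and Klf11, and Klf11 and Klf9 did not differ beyond their spread. In the second quantification, the order changed around Klf10, which exceeded Klf2 by 5.61 ± 0.90. Klf7 minus Klf10 was -4.19 ± 0.61 there, with Klf10 higher in 3 of 3 libraries. Klf11 moved from rank 9 to rank 7 of the members and exceeded Klf9 by 1.48 ± 0.11, in 3 of 3 libraries. Klf3 stood above Klf13, within the spread of that pair. With 3 libraries, an exact two-sided sign-flip test cannot give a p below 0.25, the value of each of the 4 steps (0.5625 after Benjamini-Hochberg adjustment over 9 pairs), so none passed 0.05.

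Klf10, first known as TIEG1, is an early gene of TGF-beta signalling and a repressor of the SIN3A-recruiting group. It is transcribed from the minus strand of chromosome 15, chr15:38291463-38300706 (GRCm38, GENCODE M21), with 6 annotated transcripts, all typed as protein-coding. The first quantification gave 7.96, 6.38 and 5.17 TPM in replicates 1, 2 and 3, from 248, 232 and 213 expected counts. The second gave 155, 426 and 226 TPM, from 686, 2032 and 969 estimated counts, which made Klf10 the highest member there, at rank 157 of protein-coding genes. Replicate 1 was therefore the highest library in the first quantification and the lowest in the second, and the ranges lay far apart. The deposited credibility intervals around the first quantification's posterior mean, whose level is not given in the sources used here, ran from 6.66 to 10.8, 5.28 to 9.35 and 4.36 to 7.83 TPM, overlapping one another and excluding every value of the second.

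The gap sat in 1 transcript. Klf10-204 is a model of 326 bases and 3 exons whose end was not found. It carried 1.00, 1.00 and 1.12 expected counts in the first quantification and 349, 1695 and 696 estimated counts in the second. Because it is short, these reads amounted to 143, 417 and 219 TPM, which was 91.8%, 98.0% and 97.1% of the gene's TPM. Replicate 2, the library made from the least RNA, held the most such reads, and the part of RNA amount in this was not tested. Without this transcript the second quantification gave Klf10 12.8, 8.63 and 6.61 TPM, against 7.36, 5.67 and 4.53 TPM in the first. The 5 other transcripts thus kept replicate 1 highest and replicate 3 lowest in both.

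Klf10-204 shares its first exon's end with Klf10-201 and Klf10-203, and joins it to exons of its own. The sequences on either side of that join are shown because they are what separates the short model from the long ones, with the 30 coding bases of exon 1 (chr15:38300559-38300588) in lower case and the 30 coding bases that follow in capitals (chr15:38297823-38297852 in Klf10-201, chr15:38300388-38300417 in Klf10-204, minus strand, from the GENCODE M21 transcript sequences on GRCm38).
Klf10-201: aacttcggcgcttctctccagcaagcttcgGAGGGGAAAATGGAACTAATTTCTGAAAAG
Klf10-204: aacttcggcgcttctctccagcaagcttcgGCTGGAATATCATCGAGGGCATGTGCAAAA
Klf10-203 has the same letters as Klf10-201 here. Exons 2 and 3 of Klf10-204 overlap no exon of the other Klf10 transcripts. Exon 2 of Klf10-204 (chr15:38300267-38300417, minus strand, 151 bases, annotated as coding) is shown whole because it holds a run of 33 A, in capitals, at bases 175 to 207 of the transcript.
Klf10-204 exon 2: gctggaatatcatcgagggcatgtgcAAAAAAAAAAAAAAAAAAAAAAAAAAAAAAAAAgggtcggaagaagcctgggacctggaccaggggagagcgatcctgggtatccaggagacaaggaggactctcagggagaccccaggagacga

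Tools that match reads to an index do so through short windows of sequence. Of the 294 distinct windows of 31 bases in Klf10-204, 119 also occurred in other Klf10 transcripts, 13 in transcripts of other genes and 162 in this transcript alone (both strands counted as one). The window length used by the authors is not given in the sources used here. Klf10-204 was the only one of the 36 member transcripts with 31 or more A or T in a row. Just under that length, Klf13-201 holds a run of 30 and had 410, 521 and 481 counts in the first quantification against 537, 767 and 750 in the second. Among all 141767 annotated transcripts, 210 held such a run, and 36.7% of these had at least 10 times as many reads in the second quantification as in the first (plus 1) in every library. Among transcripts without one the share was 7.90%. Of the 35 member transcripts without one, 3 passed the same limit, namely Klf3-202, Klf3-207 and Klf6-203, whose longest runs of A or T were 7, 7 and 4 bases. Whether the run draws reads to Klf10-204 was not tested.

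**Figure D2:**
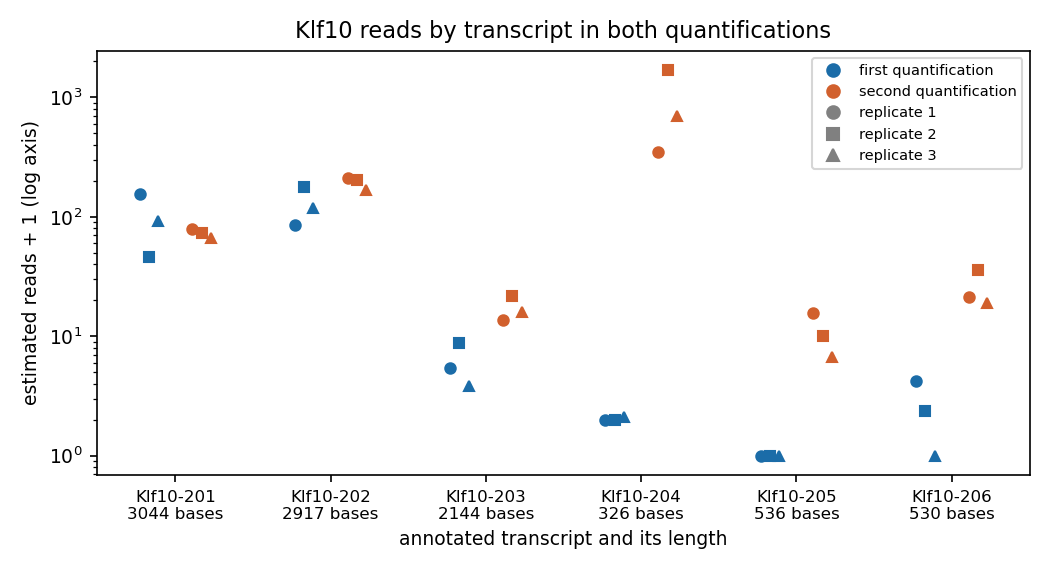
Reads assigned to each annotated Klf10 transcript, plus 1, on a log axis, with the transcript's length beneath its name; colours are quantifications and shapes are replicates. Klf10-204 has about 1 read per library in the first quantification and 349 to 1695 in the second, while Klf10-201 and Klf10-202 hold most reads of the first.

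Across all protein-coding genes detected in either quantification, the second gave the higher values for most. The median difference in log2(TPM + 1), second minus first, was 0.49 over 11910 genes. Klf10 differed by 5.06 ± 0.87, and 38 of the 11910 genes had a larger mean difference. With folds taken on TPM + 1, it was the only one of 7 members tested that was at least 2-fold higher in the second quantification in every library, against 19.7% of all genes tested. None of the 7 was at least 2-fold lower, against 0.101%. Adding 1 understates the fold of low genes: in plain TPM, Klf11 was 6.54, 3.01 and 14.3 times higher in the second quantification. Klf11 joined Klf10 with a pseudocount of 0.1, against 23.9% of genes. Klf4, detected in neither quantification and so not tested, was 2.71, 2.82 and 2.51 times higher in plain TPM. On TPM + 1 its log2 difference was 0.64 ± 0.20. Klf10 was named in advance for this disagreement, so its difference is a description, and the count of 1 in 7 is near the background. Without the transcripts that hold a run of 31 or more A or T, an alternative chosen after seeing the data, 0 of 7 members and 19.6% of genes differed in either direction, and the Klf10 difference without Klf10-204 was 0.57 ± 0.13.

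The remaining members lay closer to the bulk of genes. Differences were 0.77 ± 0.11 for Klf7, 0.65 ± 0.12 for Klf3, 0.62 ± 0.29 for Klf6, 0.32 ± 0.16 for Klf13 and 0.01 ± 0.09 for Klf2. Klf2, whose 1 transcript shares no window with any other gene, had 1.41, 1.81 and 1.46 times as many reads in the second, close to the ratios of the library totals. Klf11, at 1.35 ± 0.46, stood next after Klf10. Counted in reads rather than TPM, the second quantification held 2.77, 8.76 and 4.55 times the Klf10 reads of the first, whereas the TPM ratios were 19.5, 66.7 and 43.7.

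**Figure D3:**
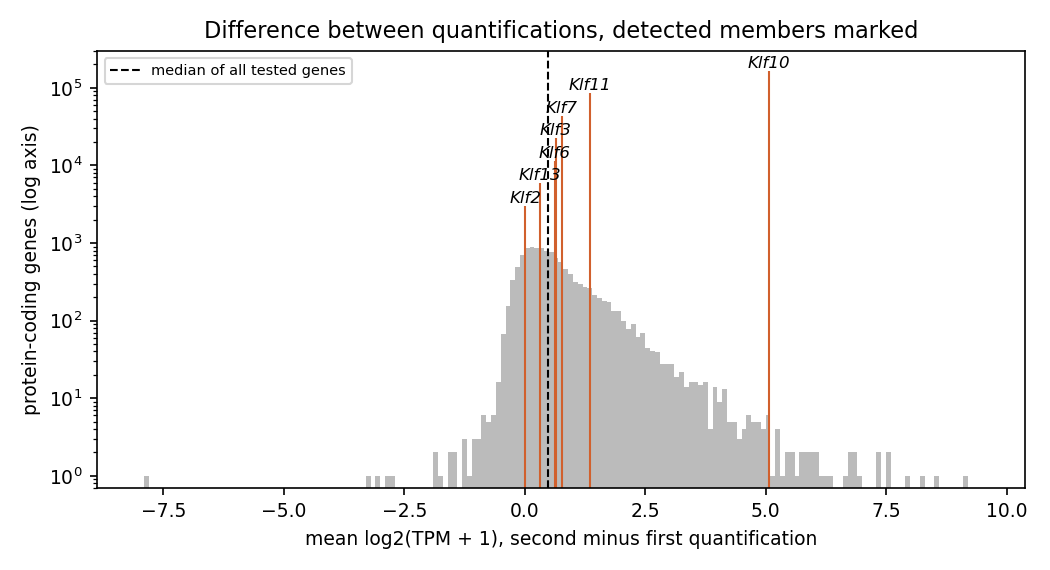
Histogram of the mean difference in log2(TPM + 1), second minus first quantification, over 11910 protein-coding genes, on a log count axis, with the 7 detected members marked and the median dashed. Klf10 lies in the right tail at 5.06 and Klf2 at 0.01, on opposite sides of the median of 0.49.

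Klf11, known as TIEG2 and the closest relative of Klf10, had 0.36, 0.80 and 0.24 TPM in the first quantification and 2.35, 2.41 and 3.44 TPM in the second. The ranges did not overlap, and the library highest in the first, replicate 2, was not the highest in the second. The deposited credibility intervals, around posterior means of 1.16, 1.47 and 0.91 TPM, were wide, and in replicate 2 the interval of 0.631 to 2.48 TPM held the second quantification's value. Taken as posterior means, the first quantification averaged 1.18 TPM for Klf11, against 0.467 TPM otherwise. Its long transcript Klf11-201 (4086 bases) held 11.1, 31 and 16 counts in the first quantification and 147, 246 and 358 in the second. Only 11 of the gene's 4335 windows of 31 bases also occur in other genes. Of these, 9 occur in Ctnnd2, which had 1.54 to 2.68 TPM in the first quantification and 14.3 to 26.7 TPM in the second. What moved the Klf11 reads was not tested.

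Klf13, a regulator of the chemokine gene Ccl5 in T lymphocytes, had 35.1, 31.2 and 29.1 TPM in replicates 1, 2 and 3. Its biological coefficient of variation, the spread between libraries beyond counting error, was 0.173 in edgeR, with 9.05% of the 14193 genes in the fit lower. That was the lowest of the members, a place taken by Klf10 without replicate 1 and by Klf3 without replicate 3. By reads, Klf13-201 (6396 bases) led, with 410, 521 and 481 counts in the first quantification against 281, 268 and 275 for Klf13-203. Klf13-203 is a single-exon transcript of 934 bases typed as retained_intron. Because it is short, it held most of the gene's TPM, at 29.0, 24.5 and 23.1 TPM. That was 82.5%, 78.6% and 79.3% of the gene's transcript TPM, a mean of 80.1% ± 2.09. The second quantification placed 58.1% ± 6.03 there. Among 4730 genes with both transcript types and at least 5 TPM in every library, the median share was 46.0% with an upper quartile of 60.6%. In the second quantification, over 5498 such genes, these were 44.6% and 61.1%, so Klf13 lay above the upper quartile in the first only.

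Klf9, induced by glucocorticoid and thyroid hormones, and Klf16, another SIN3A-recruiting repressor, were low. Klf9 had 0.28, 0.16 and 0.38 TPM from 16, 11 and 17 counts. Klf16 had 0.33, 0.69 and 0.93 TPM from 11, 27 and 39 counts, replicate 1 being lowest. Both quantifications placed them below 1 TPM in every library, with Klf16 at 0.650 ± 0.302 TPM in the first and 0.642 ± 0.240 TPM in the second. All counts exceeded the 3 that a count of 0 allows, so both genes had reads in every library.

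Klf3, the CtBP-recruiting member, had 37.5, 25.4 and 23.1 TPM from 1550, 1454 and 1234 expected counts, highest in replicate 1. Of its 9 transcripts, the spliced Klf3-201 held 8.40, 7.15 and 5.64 TPM, and the retained-intron transcripts Klf3-203 and Klf3-204 held 10.1, 8.63 and 6.65 TPM and 12.4, 8.61 and 6.73 TPM. Retained-intron transcripts made up 62.0% ± 5.19 of its TPM in the first quantification and 37.1% ± 2.77 in the second. As with Klf13, the mean lay above the upper quartile of genes with both types, 60.6%, in the first only. In the second it lay under their median of 44.6%. In the second, Klf3-203 and Klf3-204 held 10.6, 8.12 and 7.23 TPM and 12.0, 6.55 and 6.28 TPM. TPM was added there in transcripts that the first left nearly empty. Klf3-207, 298 bases long and typed as nonsense_mediated_decay, held 0, 0 and 2.00 counts in the first quantification and 31.6, 30.1 and 32.0 in the second. Klf3-202 held 0 counts in each library of the first and 111, 81.0 and 86.4 in the second. The antisense-strand gene Gm20033 overlaps Klf3 and shares 375 of its 11341 windows, at 1.16 to 2.29 TPM. The strand setting is not given in the sources used here, so reads of the overlap are uncertain.

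Klf6, an immediate early activator, had 186.3, 100.55 and 137.6 TPM from 7109, 3731 and 7243 expected counts, lowest in replicate 2. The deposited credibility intervals surround posterior means of 172, 93.4 and 128 TPM and leave out the TPM just given. They ran from 165 to 179, 87.9 to 99.3 and 123 to 134 TPM and did not overlap between libraries. Its coefficient of variation of 0.253 was above that of 87.5% of genes in the fit, but without replicate 2 it was 0.181, under that fit's median of 0.207, and without replicate 3 it was 0.234, under 0.240. The second quantification kept the order of libraries, at 335, 123 and 228 TPM. By transcript, the spliced Klf6-201 (4225 bases) held 6607, 3288 and 6874 counts in the first and 7333, 4283 and 8522.5 in the second. The retained-intron Klf6-202 (799 bases) held 488, 411 and 345 counts in the first. Because it is short, its share of TPM there was 33.2%, 46.7% and 26.1%, highest in replicate 2, where the gene was lowest. In the second its share was 47.2%, 44.3% and 40.8%, a mean of 44.1% ± 3.21, highest in replicate 1, where the gene was highest. Among genes with both transcript types the median was 46.0% in the first, against 35.3% ± 10.5 for Klf6, and 44.6% in the second. Klf6-203, typed as nonsense_mediated_decay, held 14.4, 32.6 and 24.5 counts in the first and 1102, 802 and 1312 in the second. Over 6 values, 3 libraries in each quantification, the protein-coding genes closest to Klf6 in log2(TPM + 1) were Pik3r5, Chd2 and Wdr26, at root mean square distances of 0.21, 0.26 and 0.27. For Klf10 the closest, Cmklr1, was at 1.07.

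**Figure D4:**
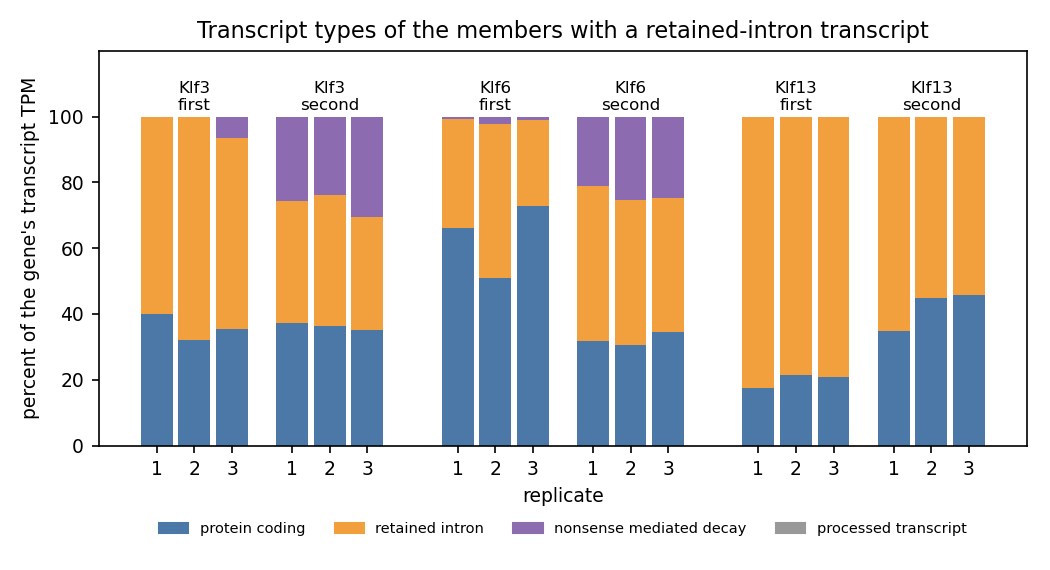
Percent of transcript TPM by annotated transcript type for Klf3, Klf6 and Klf13 in each replicate, with the first quantification left and the second right for each gene. The retained-intron part is largest for Klf13, at 78.6% to 82.5% in the first quantification, and transcripts typed as nonsense-mediated decay are larger in the second for Klf3 and Klf6.

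Klf7, a broadly expressed activator known from neurons, had 5.79, 8.28 and 6.94 TPM, highest in replicate 2 and lowest in replicate 1, and 11.6, 13.95 and 12.1 TPM in the second quantification. Of its 8128 windows, 3146 also occur in Gm26649, a lincRNA gene on the opposite strand, which had 0 to 0.15 TPM. Klf2 had 4.71, 3.85 and 3.61 TPM, highest in replicate 1, and 5.15, 3.85 and 3.38 TPM in the second quantification. Klf4 had 0.93, 0.29 and 0.46 TPM from 35.0, 13.0 and 22.0 counts, and 2.52, 0.817 and 1.16 TPM in the second, so it missed detection in both. Replicate 1 was the highest library for Klf4 in both quantifications, at 3.21 and 3.09 times the lowest. Its coefficient of variation of 0.323 was above that of 97.5% of genes. Without replicate 1 it was 0.200, above 87.4% of genes in that fit, and without replicate 3 it was 0.260, above 72.5%. Klf2 and Klf4 are strongly expressed in endothelial cells, and 3 of 6 endothelial markers were detected, against 44.0% of protein-coding genes. The 6 markers had a summed level of 25.4 to 42.8 TPM. Vwf led them at 28.0 ± 5.56 TPM, and Kdr had 9.44, 1.80 and 2.99 TPM, also highest in replicate 1. Pecam1 had 1.94, 1.88 and 1.00 TPM, and 8.12 ± 1.86 TPM in the second quantification. The other markers, Cldn5 at 0 counts, Cdh5 at 0 to 7 counts and Tek at 1 to 4 counts, were at or near 0. The part of such cells in the Klf2 and Klf4 values was not tested.

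The edgeR coefficient of variation was above the median of all genes, 0.203, for 5 of the 10 members: Klf4, Klf6, Klf9, Klf11 and Klf16. It was lower for Klf2, Klf3, Klf7, Klf10 and Klf13. Of the 5 variable members, Klf6 was the only one above 1 TPM. Values per gene are moderated towards genes of like abundance: in simulated counts, 200 genes with a true median of 0.620 came out at 0.340.

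Genes around the family were described from lists. Of the 7 Klf genes that are no members, none was detected in the first quantification. Klf8, of the CtBP-recruiting group, had 0.510 ± 0.080 TPM. Klf12, of the same group, had 2.00, 1.00 and 0 counts in the first quantification but 130, 140 and 182 in the second, at 10.6 ± 2.29 TPM, and was the only one detected there. Of the 9 related SP factors, 4 were detected in both, led by Sp3 at 44.7 ± 8.22 TPM and Sp1 at 11.4 ± 0.422 TPM. All 11 cofactor genes were detected, led by the acetyltransferase gene Ep300 at 74.5 ± 6.97 TPM and the ubiquitin ligase gene Wwp1 at 71.4 ± 6.52 TPM. The CtBP genes Ctbp1 and Ctbp2 lay at 14.4 to 27.1 TPM, and Sin3a and Sin3b at 12.6 to 36.1 TPM.

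Upstream of the family, all 12 listed inputs were detected. They include the kinases Map2k5 and Mapk7, whose MEF2 targets switch on Klf2 and Klf4 in endothelial cells, and the TGF-beta receptor and SMAD genes that act on Klf10. Mef2a led at 64.6 ± 18.6 TPM and Mef2c stood at 37.2 ± 2.69 TPM. Of 10 genes that the factors are known to act on, 6 were detected in the first quantification and 7 in the second. Cdkn1a, the cell cycle inhibitor gene, had 88.5 ± 18.9 TPM, and Zc3h12a, encoding an RNase that limits cytokine messages, had 30.7 ± 1.70 TPM. Arg1, a gene of alternative activation, made the difference between quantifications, at 1.53, 0.95 and 0.60 TPM in the first and 3.26, 2.51 and 1.75 TPM in the second. Markers of fibroblasts, T cells, B cells, neutrophils and erythroid cells were all below detection in the first quantification. The highest of each list there were Col3a1 and Col1a1 at 0.390 and 0.260 TPM, Cd8a and Cd3d at 0.120 and 0.030 TPM, Cd79b and Ms4a1 at 0.133 and 0.057 TPM, Ngp and S100a9 at 0.410 and 0.163 TPM, and Hba-a1 and Klf1 at 0.077 and 0.037 TPM. In the second, Col1a1, Cd3d, Cd8a and Mpo passed 1 TPM in every library, with Cd3d at 12.1 ± 4.41 TPM against 0 to 0.05 TPM in the first.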

How the data were processed

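Per the file headers, the deposited gene table and first transcript table hold expected counts, TPM and posterior mean TPM with credibility intervals, in columns named as RSEM names them. The second transcript table, with kallisto's column names, holds the authors' estimated counts and TPM. Notes deposited beside the files give mm10 and GENCODE M21, and alignments to the transcriptome (first) or reads and an index (second) as inputs. No source used here names program versions or the strand setting.

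Rows that are no annotated gene held 0.239% to 1.75% of expected counts and stayed out. Chi-square per degree of freedom was 151 between replicates 1 and 2, 84.6 between 1 and 3 and 33.0 between 2 and 3. All were far above sampling noise, and replicate 1 stood furthest apart. Each library counts as 1 replicate. Level differences used log2(TPM + 1) within libraries. Expected counts were rounded for edgeR 4.0.16 (R 4.3.3; filterByExpr, TMM, estimateDisp with an intercept), tested on simulated data. DESeq2 1.42.0 was an alternative. There is 1 condition, so no contrast was tested. Windows of 31 bases came from GENCODE M21 transcript sequences. Other tools were Python 3.11.15, numpy 2.4.6, pandas 2.3.3 and matplotlib 3.10.9.

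Members, lists and rules were chosen with earlier results of these data known. All members are named, and of each other list the 2 highest genes by mean TPM and those whose detection differs between quantifications. Others named were chosen after their values were seen. Alternatives were the other quantification, posterior mean TPM, other detection minimums, pseudocounts and folds, rescaling to protein-coding genes, DESeq2 and leaving out each library.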

Additional observations from a re-analysis of the deposited data

How the results depend on the processing

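No paired analysis was possible because all libraries belong to 1 group. The count of 6 detected members was 6 without any 1 library and stayed within 1.5 times of it under every other setting run. The count of members at least 2-fold apart on TPM + 1, 1 of 7 (Klf10) beside 19.8% of genes, became 2 with a pseudocount of 0.1 (23.9% of genes) and with rescaling to protein-coding genes (2023 of 11910 genes), Klf11 being added. It was 3 at 1.5-fold (33.1%; Klf7 and Klf11 added) and 0 without transcripts holding 31 or more A or T in a row (19.6%). Without replicate 1 or 3 it was 1, beside 20.5% and 20.8% of genes. Without replicate 2 it was 2 (Klf11 added), beside 23.8% of genes. The Klf10 difference of 5.06 was 4.66 to 5.53 without 1 library and 1.46 on the CPM scale. The share of Klf10 in Klf10-204 in the first quantification, 10.3%, was 16.9% with posterior mean TPM and 9.26% to 11.7% without 1 library.

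Signs turned in pairs that did not differ beyond their spread. In the second quantification Klf13 minus Klf3 was -0.15, Klf7 minus Klf10 -4.19, Klf16 minus Klf4 -0.56 and Klf4 minus Klf11 -0.63. With posterior mean TPM, Klf7 minus Klf10 was -0.037, Klf16 minus Klf4 -0.25 and Klf4 minus Klf11 -0.17. Leaving out 1 library gave -0.035 to 0.35 for Klf7 minus Klf10, -0.074 to 0.40 for Klf16 minus Klf4, -0.12 to 0.37 for Klf4 minus Klf11 and -0.033 to 0.36 for Klf11 minus Klf9. The causes were not tested. The number of members above the median coefficient of variation, 5, was 4 to 6 without 1 library, but the members changed. Klf9 had no value without replicate 3. Klf2 was above the median without replicate 1, 2 or 3, at 0.168, 0.217 and 0.260 against 0.165, 0.207 and 0.240. Klf6 was below it without replicate 2 or 3. The coefficients of Klf4 and Klf16 were 0.200 and 0.204 without replicate 1, above 87.4% and 89.5% of genes in that fit. That of Klf9 was 0.432 with DESeq2. Rescaling TPM to protein-coding genes moved the mean levels of all 10 members by more than 1 SD, but it is a change of unit that raises every gene. Mean levels of 7 members moved by more than 1 SD in the second quantification, 2 with posterior mean TPM and 0 without 1 library. With 3 libraries no test here can pass 0.05, and members at 11 to 39 counts are measured coarsely.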
